A study of Mus musculus with 18 samples.

Results

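Nascent transcription of 10 genes for integrins and adhesion receptors was followed through red cell formation in the mouse fetal liver. The genes were chosen by name: Itga4, Itga5, Itga6, Itgal and Itgam encode integrin α chains, Itgb1 and Itgb2 encode β chains, and Cd44, Selplg and Cd34 encode other surface receptors. All 10 have a row among the 54232 gene identifiers of the deposited count table, and 9 had enough counts to be tested. Itga4 RNA was present at every stage, with its highest mean in S3, the most mature population, though S3 overlapped S0-Low and the fitted difference between them changed sign when libraries were scaled by their totals. In contrast, 7 of the other genes fell by the test between S0-Low and S3, where 22.4% of all genes tested were called lower. Itgb1 RNA was present throughout.

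Integrins are surface receptors made of an α and a β chain that tie cells to matrix proteins and to counter-receptors on other cells. In the fetal liver, erythroblasts mature while attached to a central macrophage and to the matrix protein fibronectin, and they give up most adhesion receptors before they leave as reticulocytes. The α chains Itga4, Itga5 and Itga6 pair with Itgb1, which also has many other partners. Itgal and Itgam pair with Itgb2, the β chain of leukocytes. Cd44 binds hyaluronan, Selplg is the selectin ligand PSGL-1, and Cd34 is a sialomucin of stem and progenitor cells and of endothelium.

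RNA was labelled with 4-thiouridine (4sU), a uridine analogue that transcribing cells build into new RNA, and the labelled RNA was purified and sequenced (4sU-seq). All cells came from C57BL/6 embryos at e12.5 to e13.5, were rested for 6 h after sorting and received 500 µM 4sU for 45 min. The 18 libraries form 6 groups of 3. The 5 erythroid populations were sorted as free of lineage markers and by CD71, the transferrin receptor, and Ter119, an antigen of maturing red cells. S0-Low is given as CD71- and Ter119- in its marker label and as low in CD71 in its title, S0-Medium had intermediate CD71 and no Ter119, S1 had high CD71 and no Ter119, S2 had high CD71 and intermediate Ter119, and S3 was high for both. Lin+ cells carried at least 1 antigen of a lineage panel. The study's methods give that panel as CD41, CD45R, CD3e, CD11b and Ly-6G/6C. S0-Low is described as stem, progenitor and burst-forming cells, S0-Medium and S1 as early and late colony-forming cells, and S2 and S3 as maturing cells. CD11b is the product of Itgam and CD41 that of Itga2b, so a difference in either between Lin+ and the other groups would be the gate itself. CD11b pairs with the Itgb2 chain, so the gate can also bear on Itgb2 there, which was not tested.

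Total counts per library ranged from 9452476, in S0-Low replicate 3, to 40567976. Levels are given as CPM, counts scaled to a common library size, after edgeR's TMM scaling over all 18 libraries, and gene lengths were not used, so levels are compared between populations and not between genes. The 7 erythroid markers, among them Klf1 and Tfrc, which encodes the sorted antigen CD71, summed to 647 to 1056 CPM in S0-Low and to 29022 to 48058 CPM in S3. They were lowest in Lin+, at 229 to 287 CPM, although the submitted label calls those cells primary erythroblasts too. The study describes the replicates of its erythroid populations as biological. Neither it nor the labels say whether they came from separate litters or cultures, so p-values measure the spread between these libraries. The libraries numbered 3 stood apart for several genes, as given beside their values.

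Gene positions are those of RefSeq on GRCm38.p6. Itga4 is on chromosome 2 (79255426 to 79333114), Itga5 on chromosome 15 (103344286 to 103366791), Itga6 on chromosome 2 (71786886 to 71858427) and Itgb1 on chromosome 8 (128685654 to 128733579). Itgb2 is on chromosome 10 (77530329 to 77565708), and Itgal (127296139 to 127335137) and Itgam (128062640 to 128118491) are both on chromosome 7. Cd44 is on chromosome 2 (102811141 to 102901669), Selplg on chromosome 5 (113817798 to 113832528) and Cd34 on chromosome 1 (194938821 to 194961292). Itga4 overlaps Cerkl, and 3.69% of the 31-base stretches of its transcripts also occur in other genes, Cerkl among them. The Cerkl row held 0.151 to 5.77 CPM across the 18 libraries. At most 1.15% of the stretches of any other member were shared.

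RefSeq promoter windows of 250 bases before the start were at hand for 6 of the 10 genes: Itga4, Itga5, Itgb1, Itgam, Cd44 and Cd34. The Cd44 window reaches a few bases into the gene span given above, which ends at 102901669. The windows shown are those of Itga4 (chr2:79255176-79255425, + strand) and Itga5 (chr15:103366792-103367041, - strand), 2 α chains of which the second was called lower in S3 and the first was not, and of Cd44 (chr2:102901666-102901915, - strand) and Cd34 (chr1:194938571-194938820, + strand), which fell late and early. Each reads 5′ to 3′ in the direction of transcription, and capitals mark matches to 4 motifs of blood cell factors on either strand.
Itga4: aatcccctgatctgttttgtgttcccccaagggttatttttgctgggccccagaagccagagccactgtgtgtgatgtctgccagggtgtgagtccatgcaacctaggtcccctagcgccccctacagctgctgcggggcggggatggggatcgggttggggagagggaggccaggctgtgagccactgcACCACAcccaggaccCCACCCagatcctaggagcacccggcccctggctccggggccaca
Itga5: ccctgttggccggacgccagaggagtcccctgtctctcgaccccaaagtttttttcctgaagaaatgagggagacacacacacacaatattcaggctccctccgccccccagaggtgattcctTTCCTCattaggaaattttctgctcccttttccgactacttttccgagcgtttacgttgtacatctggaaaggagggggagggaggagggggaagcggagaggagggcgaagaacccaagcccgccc
Cd44: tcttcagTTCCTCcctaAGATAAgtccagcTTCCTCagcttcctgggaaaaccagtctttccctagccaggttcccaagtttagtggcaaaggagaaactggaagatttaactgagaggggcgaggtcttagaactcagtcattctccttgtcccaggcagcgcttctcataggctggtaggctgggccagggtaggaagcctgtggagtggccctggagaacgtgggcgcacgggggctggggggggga
Cd34: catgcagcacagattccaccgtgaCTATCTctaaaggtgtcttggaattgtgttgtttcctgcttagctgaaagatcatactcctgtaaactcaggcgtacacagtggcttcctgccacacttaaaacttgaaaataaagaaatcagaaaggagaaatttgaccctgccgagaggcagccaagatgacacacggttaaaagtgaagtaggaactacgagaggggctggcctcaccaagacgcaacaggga
The GATA motif (AGATAA, or its variants with a first T, TGATAA, with a last G, AGATAG, and with both changes, TGATAG) occurred in the Cd44 and Cd34 windows and in 26.6% of all 32817 mouse windows. The PU.1-type ETS motif (GAGGAA) occurred in Itga5, Itgb1, Itgam and Cd44, with 23.3% of all windows holding it. The RUNX motif (TGTGGT, 14.0% of windows) and the KLF motif (CCACCC, 28.1%) occurred in Itga4 alone of the 6, and a TATAAA box (12.4%) in none. No matches overlapped each other. A match describes these letters only.

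**Figure D1:**
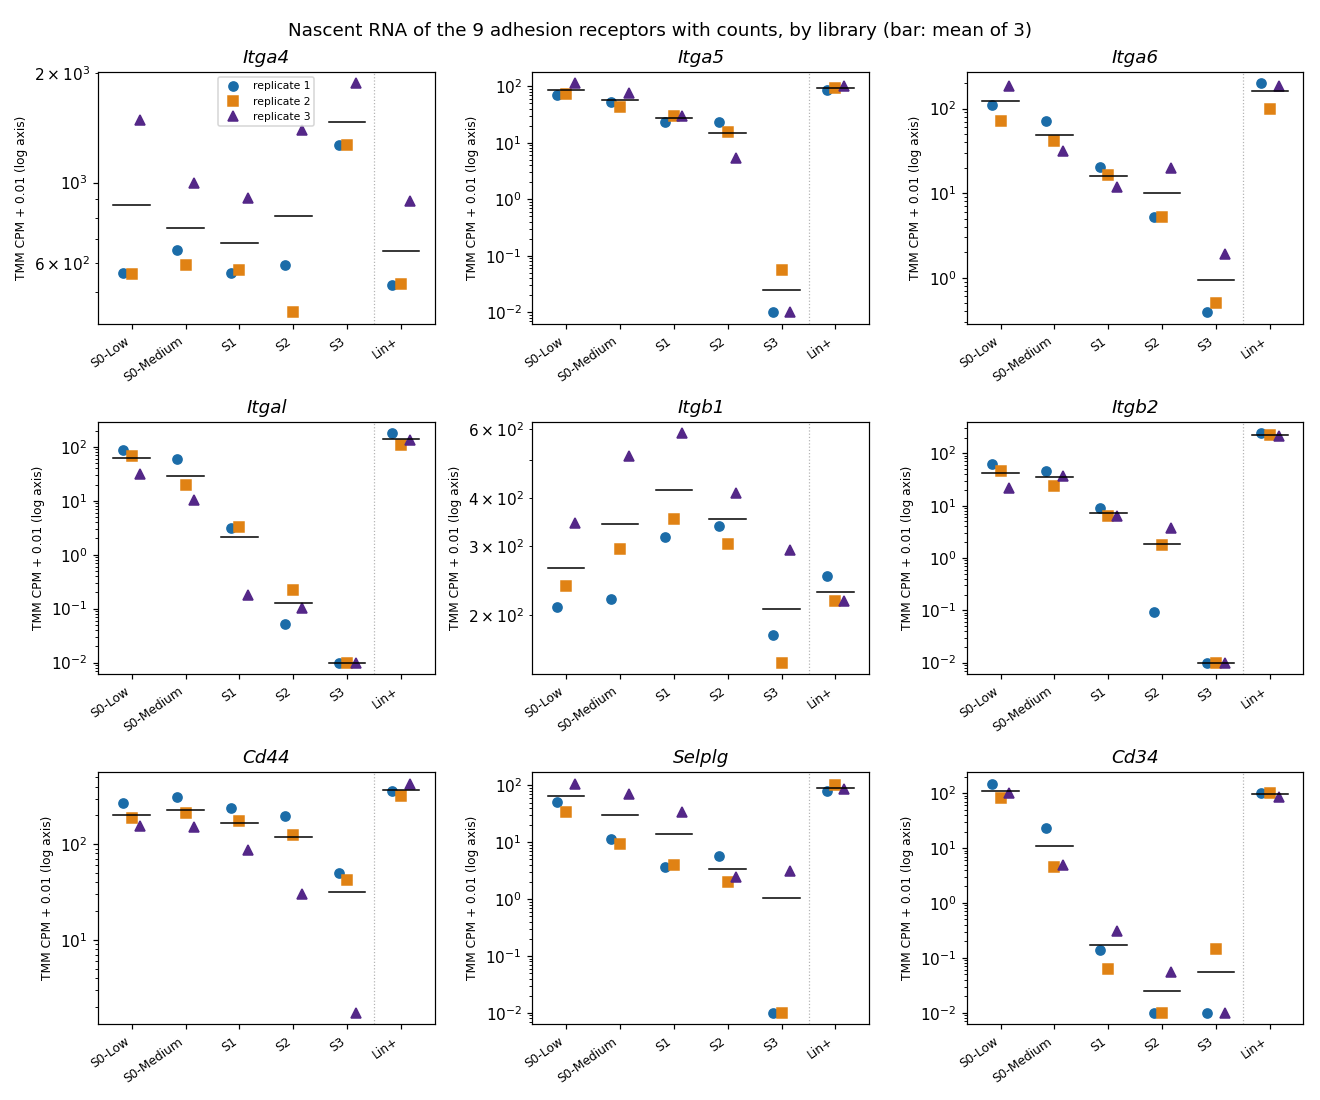
Levels of the 9 receptor genes with counts in each library (TMM CPM + 0.01, log axis) across the 5 erythroid populations and Lin+, with replicates 1 to 3 as circles, squares and triangles and a bar at each mean. Itga4 and Itgb1 stay within 151 to 1878 CPM in every library, and the other 7 genes drop towards S3.

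Among the α chains, Itga4, part of the VCAM-1 and fibronectin receptor VLA-4, was at 439 CPM or more in every library. It stood at 562, 558 and 1485 CPM in S0-Low (replicates 1 to 3 throughout), 653, 594 and 999.6 in S0-Medium, and 565, 575 and 909.6 in S1. It then stood at 593, 439 and 1397 CPM in S2, 1269.6, 1268 and 1878 in S3, and 522, 525 and 891 in Lin+. Replicate 3 was the highest library in all 6 groups, and S3 was above S0-Low in 3 of 3 same-numbered pairs while the groups overlapped. Between S0-Low and S3 the log2 difference was 0.76 (SE 0.46, adjusted p = 0.209, from the quasi-likelihood F-test of edgeR, adjusted after Benjamini and Hochberg over all genes tested), and it was called without S0-Low replicate 3 (1.34, adjusted p = 0.0408) and without all libraries numbered 3 (1.18, adjusted p = 0.00196, range over all alternatives 0.00196 to 0.815). When libraries were scaled by their totals in place of TMM the difference was -0.14, against a shift of -1.36 in the median of all genes tested (-0.54 with TMM). S3 was above S1 in all libraries, with a log2 difference of 1.11 (SE 0.47, adjusted p = 0.103), which passed with same-numbered libraries paired as a block (1.13, SE 0.24, adjusted p = 0.00274, range over alternatives 0.00274 to 0.490).

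Itga5, the α chain of the fibronectin receptor VLA-5, was close to absent in S3. Its level was 70.8, 72.3 and 112 CPM in S0-Low, and 53.3, 42.7 and 74.6 in S0-Medium. S1 held 22.9, 29.4 and 30.1 CPM, and S2 held 22.7, 15.7 and 5.37. In S3 it had 1 count in 1 library and none in the other two, and in Lin+ it stood at 85.4, 93.0 and 100.4 CPM. From S0-Medium onward no population overlapped the next. Set against the pooled S3 level (the group's summed counts over its summed library sizes, as in all such ratios here), the S0-Low mean was 4486 times higher (95% counting interval 805 to 177204), and the fall was called (adjusted p = 1.1e-06). The last step alone, from S2 to S3, was a ratio of 771 (interval 138 to 30433, adjusted p = 7.14e-05), and in S1 the mean was 32.3% of that in S0-Low.

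Itga6, the α chain of the laminin receptors, had a lower mean at each step of maturation. It stood at 109, 71.8 and 184 CPM in S0-Low, 71.8, 41.9 and 31.3 in S0-Medium, and 20.3, 16.2 and 11.7 in S1. It stood at 5.16, 5.17 and 20.1 CPM in S2, at 0.379, 0.496 and 1.90 in S3 (5, 11 and 33 counts), and at 199, 99.0 and 183 in Lin+. S1 and S2 overlapped, and S3 lay below every other library. The log2 difference between S3 and S0-Low was -7.03 (SE 0.83, adjusted p = 2.61e-05), that between S1 and S0-Low -2.93 (SE 0.68, adjusted p = 0.0298) and that between S3 and S2 -3.44 (SE 0.72, adjusted p = 0.0084). The call between S1 and S0-Low was lost when S0-Low replicate 1 or 3 or any 1 of the S1 libraries was left out (adjusted p = 0.0681 to 0.152, range over all alternatives 0.000189 to 0.152).

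Itgal, the α chain of the leukocyte integrin LFA-1, was gone earlier. It stood at 89.0, 67.1 and 30.9 CPM in S0-Low, 58.3, 19.4 and 10.5 in S0-Medium, and 3.08, 3.21 and 0.167 in S1. S2 held 1, 8 and 2 counts, S3 none in any library, and Lin+ 177, 107 and 132 CPM. Replicate 3 was the lowest library in 3 of the 5 erythroid populations. S1 was already below S0-Low, with a log2 difference of -4.86 (SE 1.05, adjusted p = 0.0255). That call too was lost when any 1 library of either group other than S0-Low replicate 3 was left out (adjusted p = 0.0549 to 0.087, range over all alternatives 1.3e-05 to 0.087). S3 was at least 1096-fold lower than S0-Low, taking 3 counts over the 3 libraries as the floor (adjusted p = 8.46e-05).

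The row of Itgam, the α chain of Mac-1, is listed at 0 in all 18 libraries, Lin+ included, although CD11b was in the lineage panel. The rows of Rpl13, Nmt1, Ube2b and Hgs, which all cells use, are also listed at 0 throughout, as are 2599 of the 17696 rows named as protein-coding genes. The 0 is therefore given as listed, and no level of Itgam was derived from it.

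Of the β chains, Itgb1 was retained and Itgb2 was not. Itgb1 stood at 209.8, 237 and 344 CPM in S0-Low, 219, 295 and 511 in S0-Medium, and 318, 352 and 586 in S1. It stood at 339, 305 and 411 CPM in S2, 177, 151 and 293 in S3, and 251, 217 and 218 in Lin+. The mean was highest in S1 and lowest in S3, replicate 3 was the highest library in all 5 erythroid populations, and only S1 and S3, and S2 and S3, were without overlap among the pairs tested. S3 differed from S0-Low by -0.35 on the log2 scale (SE 0.37, adjusted p = 0.476), which was called when libraries were scaled by their totals (-1.24, adjusted p = 0.017, range over alternatives 0.017 to 0.793), and from S1 by -1.01 (SE 0.37, adjusted p = 0.0684). With the replicate block the latter was called (-1.01, SE 0.20, adjusted p = 0.00198, range over alternatives 0.00198 to 0.227).

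Itgb2 stood at 61.7, 45.6 and 21.4 CPM in S0-Low, 46.2, 23.7 and 37.5 in S0-Medium, and 9.05, 6.47 and 6.41 in S1. It stood at 0.0847, 1.76 and 3.72 CPM in S2, had no count in the 3 S3 libraries, and stood at 239.7, 221 and 219 in Lin+. From S0-Medium onward the populations did not overlap, and Lin+ was above all erythroid libraries. S3 was at least 755-fold lower than S0-Low (adjusted p = 6.76e-05) and at least 32.6-fold lower than S2 (adjusted p = 0.00588).

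Markers of other blood cells were also higher in S0-Low than in S3. The 8 neutrophil and granulocyte markers summed to 340 to 798 CPM in S0-Low, 11.5 to 175 in S0-Medium, 0.902 to 1.81 in S1, 0 to 0.666 in S2 and 0.0575 to 2.43 in S3. Itgb2 in S0-Medium was at 83.5% of its S0-Low mean. The 9 B and T lymphoid markers summed to 20.7 to 35.5 CPM in S0-Low and 3.85 to 36.1 in S0-Medium. They summed to 0.522 to 2.03 CPM in S1, 0 to 0.213 in S2 and 0 to 1.22 in S3. The 9 macrophage and monocyte markers summed to 43.3 to 94.8 CPM in S0-Low and to 0.0575 to 4.37 in S3, where 6 of the 9, Csf1r, C1qa, C1qb, Marco, Cd14 and Ccr2, had no count. Of those 6, C1qa and Cd14 had no count in S0-Low either, and C1qb and Marco had at most 4 and 10 counts in a library there. Of the neutrophil markers, Elane, Ctsg, S100a8 and Camp had no count in S3. Camp had none in S0-Low either, and S100a8 had at most 2 counts in a library there. Fewer cells of a type and less RNA per cell cannot be told apart in these bulk libraries. The part of other cell types in the S0-Low levels was not tested.

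**Figure D2:**
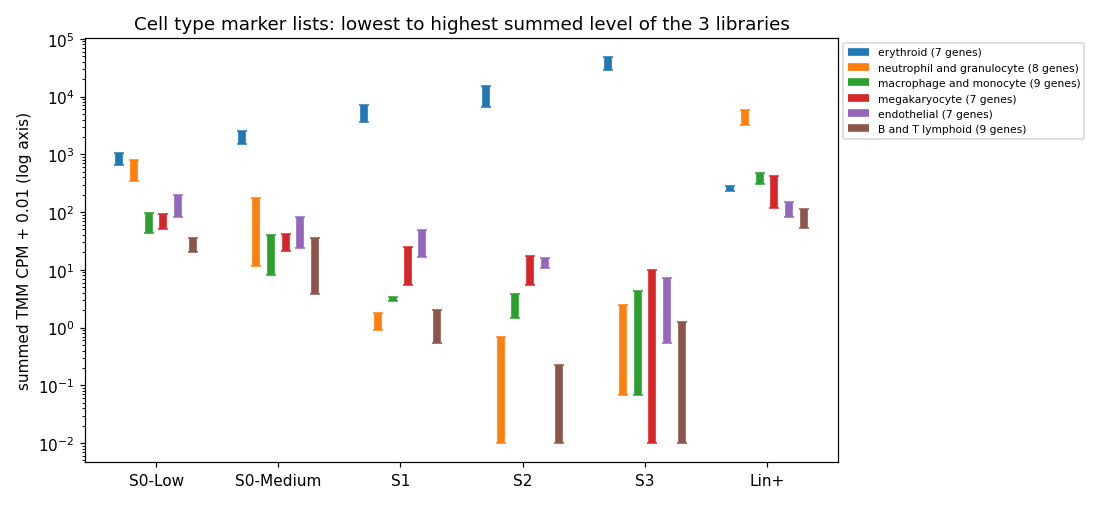
Lowest to highest summed level of 6 marker lists in the 3 libraries of each group (TMM CPM + 0.01, log axis). Erythroid markers climb from 647 CPM at the least in S0-Low to 48058 at the most in S3 and are lowest in Lin+, while the neutrophil list is highest in Lin+ (3209 to 5785 CPM), followed by S0-Low (340 to 798 CPM).

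The 3 other receptors differed in when their levels dropped. Cd34 was the earliest, at 149, 80.1 and 103 CPM in S0-Low and 23.6, 4.57 and 4.96 in S0-Medium. S1 held 5, 2 and 9 counts, S2 1 count in all and S3 3 counts in 1 library, and Lin+ stood at 101, 101 and 85.2 CPM. No library of a later erythroid population reached those of S0-Low, and the S1 mean was 0.145% of the S0-Low mean. The S0-Low mean was 1947 times the pooled S3 level (95% counting interval 666 to 9441, adjusted p = 2.16e-05), and S1 against S0-Low was called with a log2 difference of -9.44 (SE 1.14, adjusted p = 0.00111). The 7 endothelial markers, from a cell type that also makes Cd34, summed to 80.5 to 198 CPM in S0-Low, 80.7 to 152 in Lin+ and 0.530 to 7.18 in S3, and their part in the Cd34 levels was not tested. The step from S0-Medium to S1 missed the threshold (log2 difference -6.11, SE 1.00, adjusted p = 0.0639) and passed it with the replicate block (-5.91, SE 0.94, adjusted p = 0.0214, range over alternatives 7.72e-09 to 0.0620).

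Cd44, the hyaluronan receptor, was kept longer. It stood at 268, 188 and 156 CPM in S0-Low, 312, 212 and 153 in S0-Medium, and 238, 176 and 87.2 in S1. It stood at 197, 126 and 29.9 CPM in S2, 50.4, 41.9 and 1.72 in S3, and 357, 317 and 429 in Lin+. Replicate 3 was the lowest library in all 5 erythroid populations and the highest in Lin+. S1 overlapped S0-Low, with a log2 difference of -0.30 (SE 0.79, adjusted p = 0.954), and its mean was 81.9% of that in S0-Low. S3 lay below all S0-Low libraries (log2 difference -2.71, SE 0.85, adjusted p = 0.0221). Without the libraries numbered 3 that difference was -2.31 (adjusted p = 0.000581), and with only the 6 compared libraries in the fit the call was lost (-2.88, adjusted p = 0.0532, range over alternatives 1.45e-06 to 0.0532).

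Selplg stood at 50.6, 34.1 and 108 CPM in S0-Low, 11.3, 9.50 and 70.4 in S0-Medium, and 3.64, 4.02 and 33.8 in S1. It stood at 5.71, 2.00 and 2.48 CPM in S2, had no count in S3 replicates 1 and 2 and 3.16 CPM (55 counts) in S3 replicate 3, and stood at 79.4, 102 and 85.2 in Lin+. Replicate 3 was the highest library in 4 of the 5 erythroid populations, and each neighbouring pair of populations overlapped. S3 was below S0-Low by -5.92 on the log2 scale (SE 1.62, adjusted p = 0.0109). Without the libraries numbered 3, S3 had no count and the call held (log2 difference -13.49, adjusted p = 0.000106, range over alternatives 1.07e-07 to 0.0357). The size of the fall thus rested on S3 replicate 3, and it ranged from -13.96 to -5.32 over the alternatives.

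Across the whole course, 7 of the 9 tested genes were called lower in S3 than in S0-Low and none higher, where 22.4% of all 16555 genes tested were called lower and 13.4% higher. The same 7 were lower in S3 without overlap (background 25.9%). The median log2 difference was -7.03, that of Itga6, against -0.54 over all genes tested, and the 4 genes with at most 3 counts in S3 lie below it also at their bounds. Between S1 and S0-Low, 3 genes were called lower (Itga6, Itgal and Cd34, background 1.95%) and 6 were lower without overlap (background 14.5%). Between S3 and S1, 4 were called lower (Itga5, Itga6, Itgb2 and Itgal, background 12.1%), while 7 were lower (background 27.5%) and 1, Itga4, higher (background 13.6%) without overlap. With the replicate block the count between S3 and S1 was 8, with Itgb1, Cd44 and Selplg also lower and Itga4 higher (background 18.2% lower and 11.1% higher). These comparisons, and those with Lin+, share their S0-Low, S1 or S3 libraries.

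Step by step, edgeR called 0 of 9 genes between S0-Low and S0-Medium, between S0-Medium and S1 and between S1 and S2, where 0% of all genes were called. At an unadjusted p under 0.05, 1 gene was lower at the first step (background 1.47%), 4 at the second (background 5.18%) and 3 at the third (background 3.03%). DESeq2 called 1 of them, Cd34, at the first step, Itgal and Cd34 at the second and Itgal at the third, where it called 0.197%, 1.44% and 0.512% of all genes, in either direction. Between S2 and S3 edgeR called 3 genes lower, Itga5, Itga6 and Itgb2, with a background of 6.09%. With same-numbered libraries paired, the last step had 7 calls (background 11.3% lower and 7.30% higher), Itga4 higher by 1.01 (SE 0.24, adjusted p = 0.00858, range over alternatives 0.00858 to 0.582) and Itga5, Itga6, Itgb1, Itgb2, Cd44 and Selplg lower. Without overlap, 1 gene was lower at the first step (Cd34, background 6.64%), 5 at the second (Itga5, Itga6, Itgb2, Itgal and Cd34, background 10.2%), 3 at the third (Itga5, Itgb2 and Cd34, background 7.77%) and 5 at the last (Itga5, Itga6, Itgb1, Itgb2 and Itgal, background 14.2%).

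**Figure D3:**
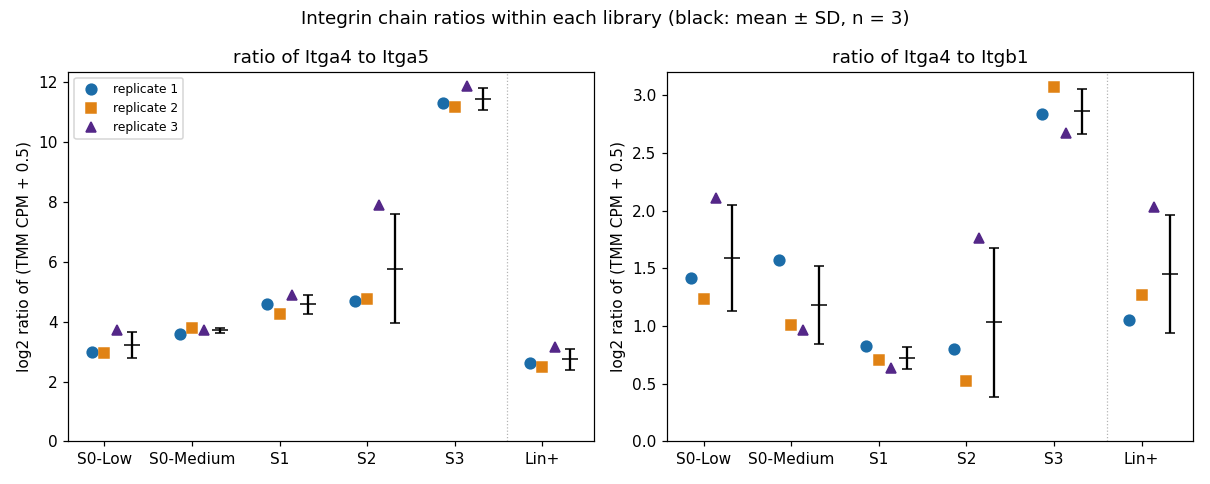
Log2 ratio of Itga4 to Itga5 (left) and of Itga4 to Itgb1 (right) in each library, computed on TMM CPM + 0.5, with the mean and SD of 3 libraries in black. Itga4 to Itga5 climbs from a mean of 3.22 in S0-Low to one of 11.46 in S3, and Itga4 to Itgb1 is lowest in S1 (0.72) and highest in S3 (2.86).

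Apart from the pseudocount, ratios within a library do not depend on how libraries are scaled. The log2 ratio of Itga4 to Itga5 was 3.22 ± 0.44 in S0-Low (SD, n = 3), 3.71 ± 0.10 in S0-Medium and 4.59 ± 0.31 in S1. In S2 it was 5.78 ± 1.83. It reached 11.46 ± 0.37 in S3 and was 2.75 ± 0.35 in Lin+. All S3 libraries lay above all S0-Low libraries, a difference of 8.24 whose two-sided exact permutation p of 0.1 is the smallest that 3 libraries against 3 can give. Since Itga5 was at or near 0 in S3, the size of this ratio there is set by the pseudocount of 0.5 CPM, and with 2 CPM the difference was 6.30. The ratio of Itga4 to Itgb1 was looked at after the levels had been seen and was not tested. It was 1.59 ± 0.46 in S0-Low, 0.72 ± 0.10 in S1 and 2.86 ± 0.20 in S3, above every library of the other groups.

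**Figure D4:**
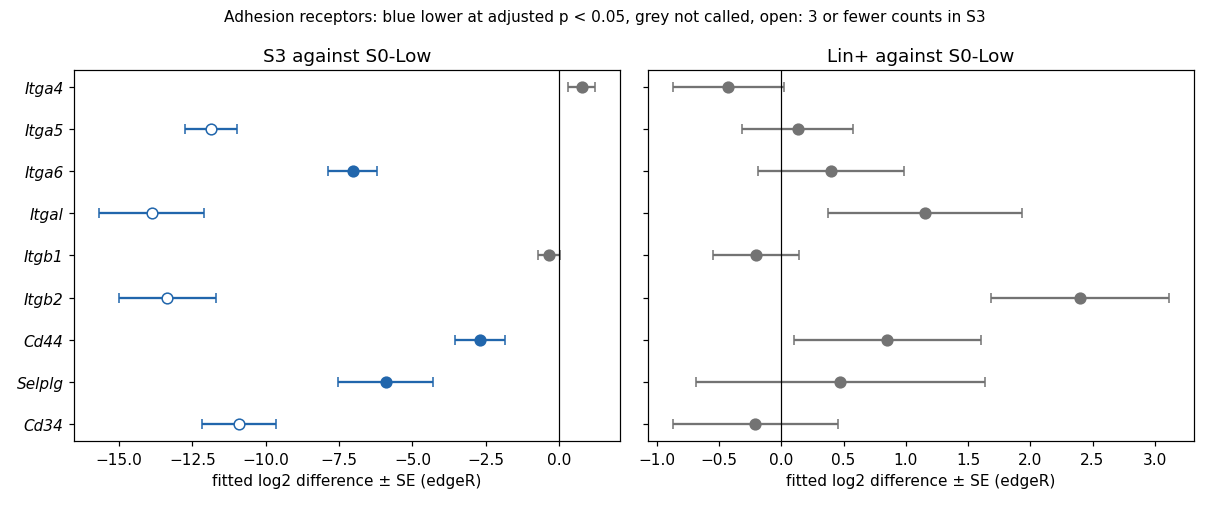
Fitted log2 difference ± SE for each receptor gene in S3 against S0-Low (left) and Lin+ against S0-Low (right), blue where lower at an adjusted p under 0.05 and grey where not called. On the left 7 genes lie at -2.71 or below, with open symbols where S3 held 3 counts or fewer and the size depends on the fit, and on the right no gene is called.

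Lin+ cells had the highest mean level of Itga5, Itga6, Itgb2, Itgal, Cd44 and Selplg among the 6 groups. Against S0-Low, Itgb2 was higher by 2.40 on the log2 scale (SE 0.71, unadjusted p = 0.00406, adjusted p = 0.166), with no overlap. Its product pairs with the gated CD11b, so this difference is not independent of the sort. Itgal (1.15, SE 0.78, adjusted p = 0.790) and Cd44 (0.85, SE 0.75, adjusted p = 0.893) also stood above S0-Low in every library. These 3 genes were the ones higher in Lin+ without overlap (background 15.7%). By edgeR 0 of 9 genes were called, against 0.496% of all 17755 genes higher and 0.220% lower. At an unadjusted p under 0.05 there was 1 gene, Itgb2 (background 6.89%), which DESeq2 also called (adjusted p = 0.0315, range over alternatives 0.0095 to 0.443). Cd34 (-0.21, SE 0.66), Itga5 (0.13, SE 0.44) and Itgb1 (-0.20, SE 0.35) differed from S0-Low by less than their errors.

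Between Lin+ and S3, 7 genes were called higher in Lin+ (background 28.2%) and Itga4 lower (background 14.1%), with Itgb1 not called (0.14, SE 0.35, adjusted p = 0.764) except with library totals (0.97, adjusted p = 0.0322, range over alternatives 0.0322 to 1). Itgb2 was at least 3985-fold and Itgal at least 2438-fold higher in Lin+. The log2 difference of Itga4 was -1.19 (SE 0.45, adjusted p = 0.0427). That call was lost in 10 of 14 alternatives, among them library totals (-0.35) and the omission of any S3 library or of Lin+ replicate 1 or 2 (adjusted p over all alternatives 0.000339 to 0.527). Neutrophil markers summed to 3209 to 5785 CPM in Lin+, macrophage markers to 308 to 466 and megakaryocyte markers to 117 to 418, each above S0-Low. Their part in the levels of Itgb2, Itgal, Cd44 and Selplg was not tested.

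The 9 genes differed in how alike their courses were. Over the 18 libraries, which share scaling and populations, log2(CPM + 0.5) of Itgal correlated with that of Cd34 (r = 0.947) and of Itgb2 (r = 0.940), and the lowest value was that of Itga4 with Cd44 (r = -0.738), where the libraries numbered 3 were the highest for Itga4 and the lowest for Cd44 in all 5 erythroid populations. Among 10063 genes, the closest course to Itga5 was that of Spn, the leukocyte sialomucin CD43 (r = 0.993). The closest to Itgb2 was that of Hcls1, a cortactin-like protein of blood cells (r = 0.983), and the closest to Itgal that of Coro2a, a coronin that binds actin (r = 0.989). Cd34 was followed most closely by 5830405N20Rik (r = 0.993) and Cd244 (r = 0.990), Cd44 by Pde3b (r = 0.981) and Itga6 by E330009J07Rik (r = 0.984). Itga4 was matched less closely, by the histone demethylase gene Kdm3a (r = 0.935), and Itgb1 least, by Thra, a thyroid hormone receptor (r = 0.884). These are descriptions over libraries of 6 populations, with no test.

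**Figure D5:**
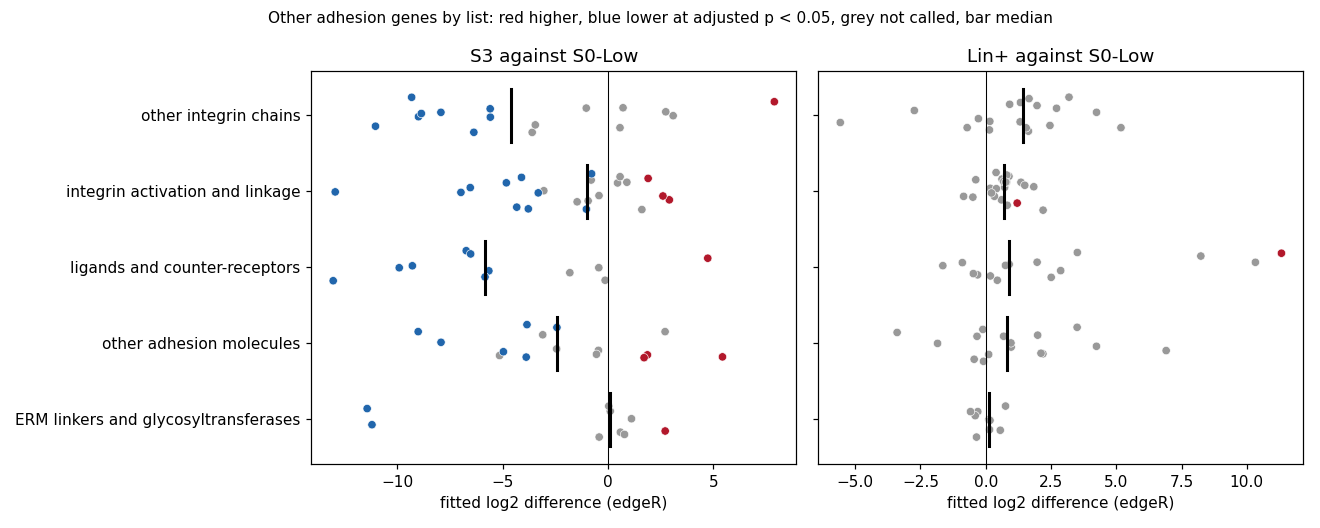
Fitted log2 difference of each tested gene of 5 adhesion lists in S3 against S0-Low (left) and Lin+ against S0-Low (right), red where higher and blue where lower at an adjusted p under 0.05, with a black bar at the list's median. On the left the integrin chains and ligands sit mostly below 0 (8 of 16 and 7 of 11 lower), and on the right 2 genes are called higher.

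The wider adhesion pathway was read from 5 lists. Of 16 tested other integrin chains, 8 were lower and 1 higher in S3 than in S0-Low, with a median log2 difference of -4.59, or -4.34 with genes near 0 in S3 at their bounds. Over all genes tested, 22.4% were lower and 13.4% higher, with a median of -0.54, and the counts of each list below stand against these shares. Itga8 fell to 1 count from a mean of 5.69 CPM (ratio 300.2, 95% counting interval 53.9 to 11856), and Itga2 fell by 6.37 on the log2 scale (SE 1.90, adjusted p = 0.0174). The Itga2 call was lost in 4 of 13 alternatives (adjusted p over all of them 0.0074 to 0.104), among them without S0-Low replicate 3 (-4.08), without S3 replicate 3 (-5.82) and without all libraries numbered 3 (-3.44). The rise was that of Itga11, a collagen receptor chain named after its values were seen, which had between 0 and 410 counts in the S3 libraries and was not called without any 1 of the S0-Low libraries or without S3 replicate 1 (there the log2 difference was 0.25, adjusted p = 0.942, range over alternatives 0.000998 to 0.942). Itga2b (-1.03, SE 0.61, adjusted p = 0.192) and Itgb3 (-3.45, SE 1.42, adjusted p = 0.0669), the chains of the platelet receptor, were not called.

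Of 22 genes for integrin activation and linkage to actin, 10 were lower and 3 higher, with a median of -0.98. The share of 3 in 22 is close to the 13.4% of all genes called higher. Rasgrp2, the exchange factor for Rap1, was at least 574-fold lower, and Zyx, a focal adhesion protein, fell by 6.98 (SE 1.42, adjusted p = 0.00163). S3 replicate 3 decided the size of the Zyx value, which was -11.59 without that library and -11.30 without all libraries numbered 3. Slc3a2, the CD98 heavy chain, rose by 2.61 (SE 0.31, adjusted p = 2.96e-05), from 142 to 250.1 CPM in S0-Low to 932 to 1569 in S3. Ptk2, focal adhesion kinase, rose by 2.91 (SE 0.50, adjusted p = 0.000441), and Rap1a, named after its values were seen, by 1.91 (SE 0.35, adjusted p = 0.000771). Tln1, the talin that activates integrins, was at a log2 difference of -0.43 (SE 0.36, adjusted p = 0.367).

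Of 11 tested ligands and counter-receptors, 7 were lower and 1 higher, against 22.4% and 13.4% of all genes, with a median of -5.84, or -5.49 at the bounds. Icam4, an erythroid ligand of integrins, had a higher mean at each erythroid stage and rose from 2.76 to 7.39 CPM in S0-Low to 87.6 to 187 in S3 (log2 difference 4.74, SE 0.64, adjusted p = 7.17e-05). Icam1, the ligand of LFA-1, had no count in S3 and was at least 613-fold lower. Among 15 other adhesion molecules, 6 were lower and 3 higher (median -2.44). Cd82, a tetraspanin, rose by 5.43 (SE 1.22, adjusted p = 0.00324), and Cd47 by 1.87 (SE 0.52, adjusted p = 0.0123), which was lost without S0-Low replicate 1 or 2 (adjusted p = 0.0604 and 0.0617) and with library totals (0.98, adjusted p = 0.118, range over alternatives 4.39e-05 to 0.118). The third was Cd99l2 (1.71, SE 0.35, adjusted p = 0.00167), named after its values were seen. Spn fell by 4.97 (SE 0.41, adjusted p = 1.74e-06), and the S0-Low mean of Cd63, another tetraspanin, was 674 times the pooled S3 level (interval 121 to 26613).

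The list of linkers and glycosyltransferases holds enzymes that give Selplg its selectin-binding sugars. Of its 9 genes, 2 were lower and 1 higher in S3 than in S0-Low, close to the 22.4% and 13.4% of all genes. Fut4 and Fut7, the fucosyltransferases, had no count in S3, which put Fut4 at least 201-fold and Fut7 at least 171-fold below S0-Low. Gcnt1, the branching enzyme of O-glycans, rose by 2.71 (SE 0.44, adjusted p = 0.000288), and the other 6 were not called. The median of the 9 was 0.11. Against S0-Low, Lin+ had 2 calls over the 5 lists, where 0.496% of all genes were called higher: Rap1b was higher by 1.20 (SE 0.25, adjusted p = 0.0291), and Has2, a hyaluronan synthase, stood at a mean of 10.0 CPM where S0-Low had no count, at least 303-fold higher (adjusted p = 0.0319). Both calls were lost when single libraries were left out, Rap1b without 5 of the 6 and Has2 without any 1 (adjusted p over all alternatives 6.05e-05 to 0.163 and 1.57e-08 to 0.142).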

How the data were processed

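Nascent RNA was sequenced in 18 libraries, 3 in each of 6 sorted groups. Per the submitters' processing notes, reads were assigned to transcripts with kallisto 0.43.0 on GRCm38, and the authors deposited 1 table of estimated counts per gene, in whole numbers and not normalised. Of the 54232 identifiers, 32651 were given a symbol from a gene names table. Library totals ranged from 9452476 to 40567976, so that 3 counts correspond to 0.0739 to 0.317 CPM. Intervals and floors cover counting error only.

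Genes were filtered with filterByExpr, scaled by TMM and tested with edgeR 4.0.16 (quasi-likelihood F-test, Benjamini-Hochberg adjustment, threshold 0.05) in R 4.3.3. Comparisons among erythroid populations were fitted on their 15 libraries (16555 genes), and those with Lin+ on all 18 (17755 genes). Same-numbered libraries deviated together (every r over 0.1, 0.170 to 0.547) in 7 of the 9 comparisons, where the numbers were taken to pair them. They did not for S3 against S0-Low (0.0806 to 0.131) or Lin+ against S3 (0.0905 to 0.160). The main tests used population alone and left the pairing out. It entered only in the replicate block, an alternative. Log2 ratios used a pseudocount of 0.5 CPM. Counting intervals of ratios are exact at 95%. The edgeR step was also run on counts simulated with a fixed spread and no replicate effect. That run checks the code and not the fits to these data.

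Members and lists were chosen with earlier results of these data known. From each pathway list, up to 2 risers and 2 fallers with the largest change were named, among genes past the threshold, moving the same way in all 3 pairs and averaging at least 5 CPM in the higher group. A gene picked by this rule is not reported here. Alternatives were DESeq2 1.42.0, other scaling (RLE, library totals), no filter, at least 10 counts in every library, the compared libraries alone, globin genes left out, a replicate block and each library left out in turn. A fit on replicates 1 and 2 alone was chosen after seeing the data. The ratio of Itgal to Itgam was not computed, since Itgam is listed at 0. Promoters are RefSeq windows on GRCm38.p6. Figures were drawn with matplotlib 3.10.9.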

Additional observations from a re-analysis of the deposited data

How the results depend on the processing

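The fall of Itga5, Itga6, Itgb2, Itgal, Selplg and Cd34 between S0-Low and S3 kept its direction and its call under each alternative that could test the gene. With a minimum of 10 counts in every library, a filter that removes genes at or near 0 in S3, 3 receptors could be tested there, and Cd44, the 1 among them of the 7 called, was called again. Leaving out 1 library gave 7 to 8. The percentages that follow are the share of all genes called in either direction under the same setting. No such share was computed for the fits with 1 library left out. For S1 against S0-Low (3 called, 2.92%), DESeq2 gave 5 (5.91%), the 6 compared libraries alone 5 (8.25%), the minimum of 10 counts 1 (2.60%), and leaving out 1 library 1 to 2. For S3 against S1 (4 called, 19.3%), library totals gave 7 (27.1%), no filter 8 (13.1%), the minimum of 10 counts 2 of 3 tested (26.9%), replicates 1 and 2 alone 8 (24.7%), and leaving out 1 library 4 to 6. For Lin+ against S0-Low (0 called, 0.715%), DESeq2 (2.21%), no filter (1.30%) and the 6 compared libraries alone (3.60%) each gave 1, Itgb2. For Lin+ against S3 (8 called, 42.2%), the minimum of 10 counts gave 1 of 3 tested (42.0%). Over the 4 steps (3 called, 2.34% of all tests), DESeq2 gave 7 (3.44%), no filter 8 (2.60%), replicates 1 and 2 alone 7 (4.72%), and leaving out 1 library 3 to 5, with 5 without S2 replicate 3 or without S3 replicate 3. The cause of these moves was not tested beyond the number of genes each filter left.

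With same-numbered libraries paired as a block, calls numbered 8 between S3 and S1 (29.4%) and 8 over the 4 steps (4.76%), 3 between S1 and S0-Low (6.03%) and 0 between Lin+ and S0-Low (1.93%). For the 2 comparisons whose numbers share only a label, the block gave 8 calls each, where 42.4% (S3 against S0-Low) and 48.1% (Lin+ against S3) of all genes were called. Itga4 was added between S3 and S0-Low (0.89, adjusted p = 0.00809), and for the chain ratio a sign-flip test over 3 pairs cannot go below its exact p of 0.25. The difference of 8.24 in the log2 ratio of Itga4 to Itga5 was 10.42 with a pseudocount of 0.1 CPM, 6.30 with 2 CPM and 8.03 to 8.50 without 1 library.

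The sign turned for Itga4 between S3 and S0-Low with library totals (-0.14). Leaving out 1 library turned others, given here as the main value, the turned value and the lowest over all alternatives. Between S1 and S0-Low, Itga4 stood at -0.35, at 0.21 without S0-Low replicate 3 and at -0.68. Cd44 stood there at -0.30, at 0.020 without S1 replicate 3 and at -0.72. Between Lin+ and S0-Low, Itga4 stood at -0.43, at 0.20 without S0-Low replicate 3 and at -0.73. Itgb1 stood there at -0.20, at 0.031 without S0-Low replicate 3 and at -0.34. Cd34 stood there at -0.21, at 0.069 without S0-Low replicate 1 and at -0.40. With replicates 1 and 2 alone, Itga4 in S1 against S0-Low was at 0.025 and Itgb1 in Lin+ against S0-Low at 0.055. None of these turned values was called, and the cause was not tested. Alternatives for the ratio of Itgal to Itgam were not run. The 3 libraries a group and the 9452476 counts in the shallowest limit what small differences can show.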
